A study of Mus musculus with 6 samples.

Results

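The transcripts described here are those of 50 genes that build the mitotic spindle, attach chromosomes to it and drive the cell from G2 into and out of mitosis. The genes were taken from a list of mitosis genes and were found in the deposited table by matching Ensembl identifiers to symbols. All 50 were present among 55401 genes, 1 of them (Knl1) under its older symbol Casc5. Expression was measured by RNA-seq in 6 libraries of mouse cells labelled as female germline stem cells (FGSCs), strain C57BL/6, passages above 20, grown on STO feeder cells that had been made unable to divide. The 3 control libraries came from untreated cells and the 3 metformin libraries from cells given 1 μM metformin for 24 h. Metformin is a biguanide used against type II diabetes, and the study asked how it acts on the proliferation of these cells. The cells are described as 1 line, and the sample labels do not say that the 3 libraries of a group came from separate cultures, so p-values here measure the spread between these libraries.

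Entry into mitosis is driven by cyclin-dependent kinase 1 bound to cyclin A or cyclin B, with Polo-like and Aurora kinases acting beside it. Kinesin motors and their partners then build a bipolar spindle, condensin and topoisomerase II shape the chromosomes, and kinetochores assembled on the centromeres bind the microtubule ends. Until every kinetochore is attached, the spindle assembly checkpoint holds back the anaphase-promoting complex. When the checkpoint is satisfied, that complex has cyclin B and securin destroyed, separase cuts cohesin, and the cell divides. Most of these genes are transcribed late in the cell cycle, so that their mRNA in a culture is an accepted sign of cells passing through G2 and mitosis. Within a bulk RNA sample, however, fewer cells in mitosis and less mRNA per mitotic cell cannot be told apart.

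The libraries held about 13400000 to 14000000 fragments each, as estimated from the steps that single fragments make in the values of short genes, and neither group was consistently deeper. At that depth 1 fragment per kb of transcript was worth 0.0714 to 0.0746 FPKM, the unit of the table (fragments mapped to a transcript, scaled to its length in kilobases and to the depth of the library). The defining germ cell markers were at or near 0: of 11 markers, 6 were listed at 0 in all libraries, among them Dazl, Pou5f1 and Figla, and without Kit and Ifitm3 the highest single value of the other 9 was 0.06 FPKM. Kit averaged 118 FPKM in both groups, but it is a gene of blood cells and mast cells as well. Of 14 blood cell markers, 12 averaged at least 1 FPKM, while Fcer1a was listed at 0 in all libraries and Ms4a2 averaged 0.897 FPKM. The 14 summed to 968 to 998 FPKM in control and 944 to 976 FPKM in metformin libraries. Much of that sum was Cpa3, with means of 366 FPKM in control and 338 FPKM with metformin. Of the 12, 7 read lower and 5 higher on average with metformin. Markers of feeder fibroblasts summed to 0.92 to 1.19 FPKM in control and 0.89 to 0.92 FPKM in metformin libraries, with none of the 14 averaging 1 FPKM. Among 6 granulosa cell and 5 epithelial markers no value exceeded 0.98 FPKM. The cells are therefore called by their label here, without the label being borne out by these markers. The part of differences in cell makeup in the results below was not tested.

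Many genes of this kind share short elements beside their start sites. The cell cycle genes homology region (CHR), with the letters TTTGAA or TTTAAA, is known as the element bound by the DREAM and MuvB complexes, and the NF-Y box, with the letters CCAAT, lies upstream of it in many of the same promoters. Both were searched on both strands in RefSeq promoter windows of 300 bases (250 before and 50 after the annotated start, GRCm38.p6). The TTTAAA form reads the same on both strands, and the 2 forms of the CHR differ in 1 base. Windows existed for 41 of the 50 genes, in 46 windows. A CHR began within 50 bases of the start in 32 of the 46 windows (69.6%), against 4.97% of 8729 windows of genes tested for expression here and 8.28% of 32851 windows in all. At least 1 NF-Y box was present in 78.3% of the mitosis windows, against 38.4% of the windows of tested genes, and both elements together in 60.9% against 2.29%. Anywhere in the window, a CHR was found in 82.6% against 19.0%, and 2 or more NF-Y boxes in 47.8% against 15.3%. The median GC content of the mitosis windows was 58.8%, against 61.3% for the windows of tested genes. These shares describe letters in a window and were not tested, since the genes were listed for their role in mitosis.

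The stretches around the CHR are shown for members with lower readings in the metformin libraries (Hmmr, Kif11, Top2a, Ccnb1) and for members of the same promoter type with nearly equal readings in both groups (Cdc20, Ccnb2, Cdk1, Plk1, Ube2c), each 30 bases on the strand of the gene, with the CHR letters in capitals.
Hmmr: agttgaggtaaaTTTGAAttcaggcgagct
Kif11: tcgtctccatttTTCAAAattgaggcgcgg
Top2a: gctagataaaggTTCAAAtgaaactaggga
Ccnb1: agcggcccggggTTTAAAcctaagcccggc
Cdc20: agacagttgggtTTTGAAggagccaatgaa
Ccnb2: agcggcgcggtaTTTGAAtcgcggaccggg
Cdk1: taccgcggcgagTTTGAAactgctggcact
Plk1: gcgggtttgtatTTTAAAtccccgcggcca
Ube2c: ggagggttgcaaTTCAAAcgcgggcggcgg

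The capitals TTCAAA are TTTGAA read on the other strand. In GRCm38.p6 the windows lie at chr11:40733412-40733441 on the minus strand for Hmmr, chr19:37376351-37376380 on the plus strand for Kif11, chr11:99024195-99024224 on the minus strand for Top2a and chr13:100786511-100786540 on the minus strand for Ccnb1. The others lie at chr4:118437344-118437373 (minus) for Cdc20, chr9:70421533-70421562 (minus) for Ccnb2, chr10:69352910-69352939 (minus) for Cdk1, chr7:122159394-122159423 (plus) for Plk1 and chr2:164769888-164769917 (plus) for Ube2c. The first capital stands 18 bases before the annotated start in Cdc20 (position -18), at -19 in Kif11, -23 in Top2a, -29 in Plk1 and Ube2c, -42 in Ccnb1 and -15 in Cdk1, and 8 and 4 bases after it in Hmmr and Ccnb2. Over all members, the median position was -16 for 54 CHR matches and -71 for 77 NF-Y boxes, so that the CHR mostly lay nearer to the start. The readings of the 30 genes with a CHR within 50 bases of the start differed between metformin and control by a median log2 fold change of -0.05 (range -0.13 to 0.03), and those of the 11 genes with a window but no such CHR by -0.04 (range -0.10 to 0.06). The ranges of both sets overlapped, and genes with lower readings were found in each.

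**Figure D1:**
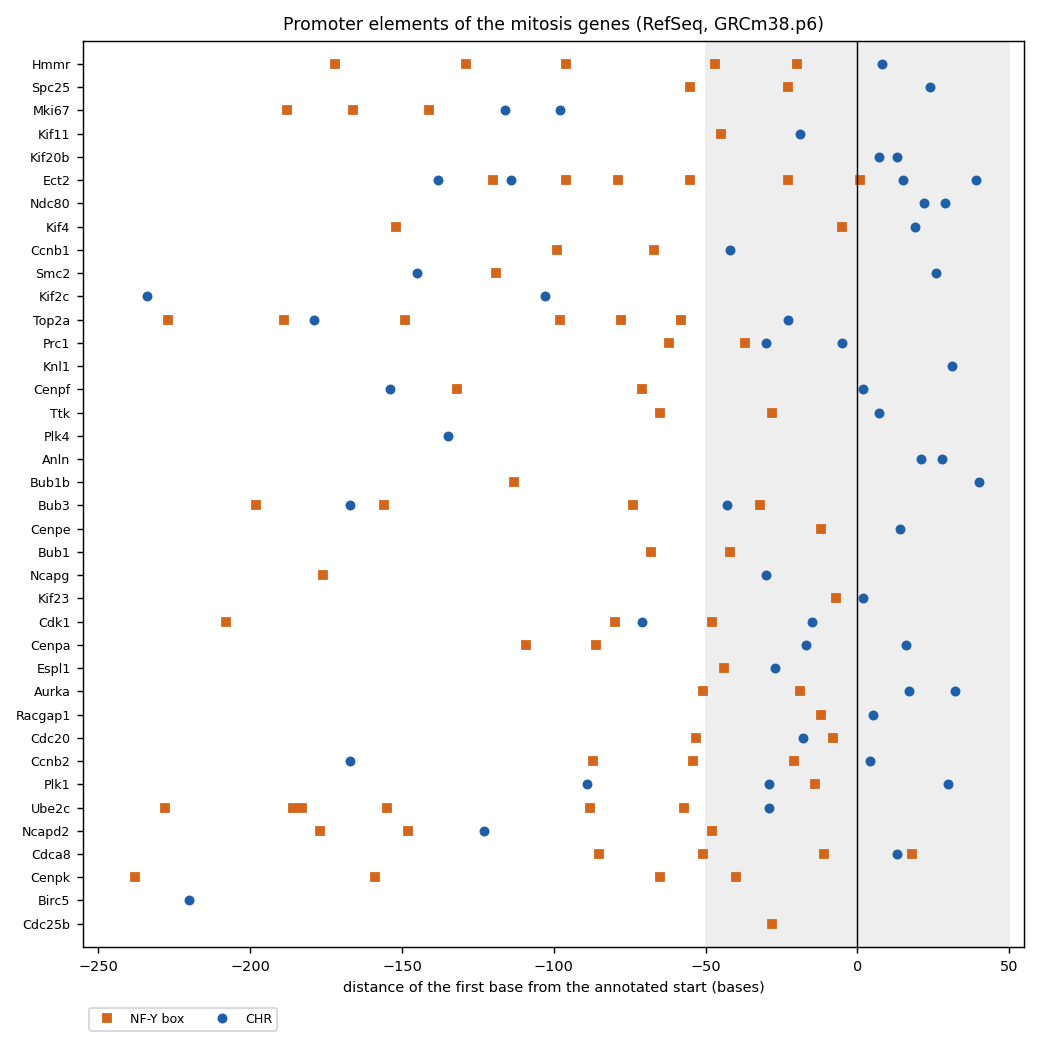
Positions of the CHR (circles) and of NF-Y boxes (squares) in the promoter windows of the mitosis genes that hold at least 1 of them, ordered from the lowest log2 fold change (Hmmr) to the highest (Cdc25b); matches of all windows of a gene are drawn, and the x axis is the distance in bases of the first letter from the annotated start. CHR matches lie mostly in the grey band within 50 bases of the start (38 of 54), and NF-Y boxes mostly upstream of it (25 of 77 within the band). An element that lies in more than 1 window of a gene is counted at each of its positions.

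All 50 genes averaged at least 1 FPKM and entered the test with 10661 genes. Their levels ran from 3.19 FPKM (Cenpk, a subunit of the constitutive centromere network) to 133 FPKM (Cdc20, the activator of the anaphase-promoting complex), with a median of 24.6 FPKM, against 9.35 FPKM over all tested genes. FPKM divides by transcript length, and levels of different genes are set side by side here without correction for GC content or overlapping genes. After Cdc20 the highest were Top2a, Ccnb2, Tpx2 and Ccna2, all above 69 FPKM in all libraries, and at the low end Knl1, Ndc80, Ttk and Cenpf stayed below 10.1 FPKM with Cdc25c and Cenpk below them. Of the 9 kinetochore genes only Cenpa exceeded 16 FPKM. Replicates were close, with a median coefficient of variation over the members of 2.25% among the control and 2.93% among the metformin libraries. By approximate length, the lowest members rested on about 57.7 fragments per library (Cenpk) and the highest on about 8468.

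**Figure D2:**
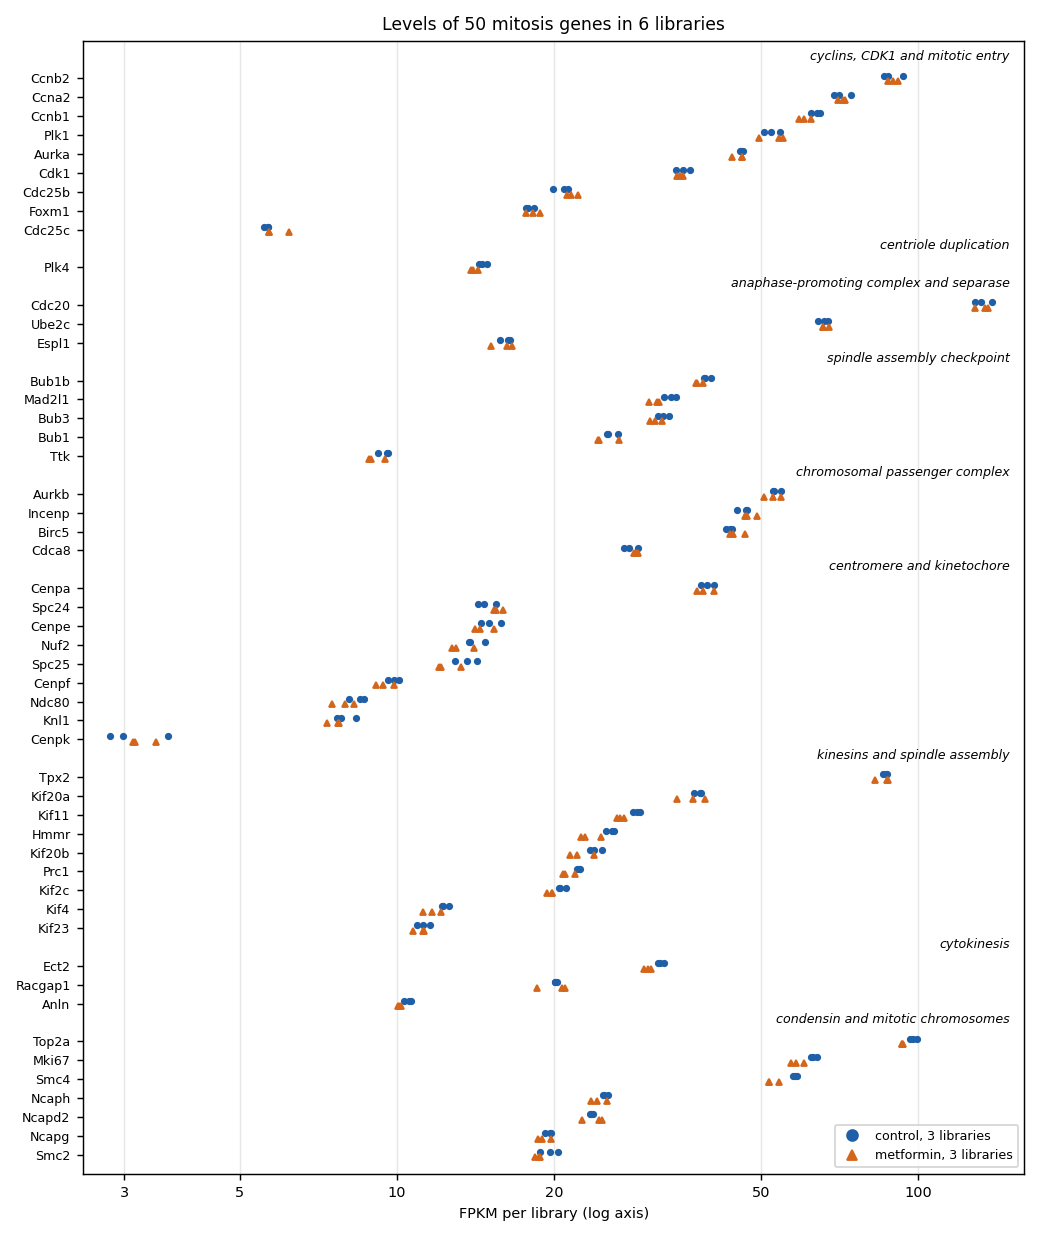
FPKM of the 50 mitosis genes in each library, on a log axis, grouped by role and ordered by mean level; circles are the 3 control and triangles the 3 metformin libraries. The levels spread from 3.19 FPKM (mean of Cenpk) to 133 FPKM (mean of Cdc20), while the 6 libraries of a gene lie close together.

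The question of the comparison was whether the mRNAs of the division machinery differed after metformin. No member passed the test, and the differences were small: 36 of 50 had lower means in the metformin libraries, by a median log2 fold change over the 50 of -0.04, and the 14 others had higher means. The lowest readings relative to control belonged to Smc4 and Hmmr, and the highest to Spc24 and Cdc25b. By role, the median log2 fold change ran from -0.07 for kinesins and chromosome-structure genes to 0.04 for the chromosomal passenger complex, and differences between roles were not tested. The 95% interval of every member's log2 fold change lay within ±0.25, from -0.24 to 0.23.

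The test was limma on log2(FPKM + 1), two-sided, with Benjamini-Hochberg adjustment over all 10661 genes. It called 3 genes in all (0.0281%), Trib3, Chac1 and Ddit3, all higher with metformin, and 0 of the 50 members, whose adjusted p ran from 0.284 for Smc4 to 0.998 for Cdc20. At an unadjusted p under 0.05, 9 members (18%) were lower, where 4.81% of all tested genes were, and 0 were higher, where 6.03% of all genes were. The 3 metformin values lay below all 3 control values in 14 members (28%), where this held for 8.1% of tested genes. They lay above all 3 control values in 1 member, Cdc25c (2%), where 8.89% of tested genes did so. A negative log2 fold change was found in 72% of members and in 47.7% of tested genes, and the median over all tested genes was 0.0041. With 3 libraries against 3, an exact permutation test cannot give a p under 0.1, which is also its value for each of the genes whose groups did not overlap.

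**Figure D3:**
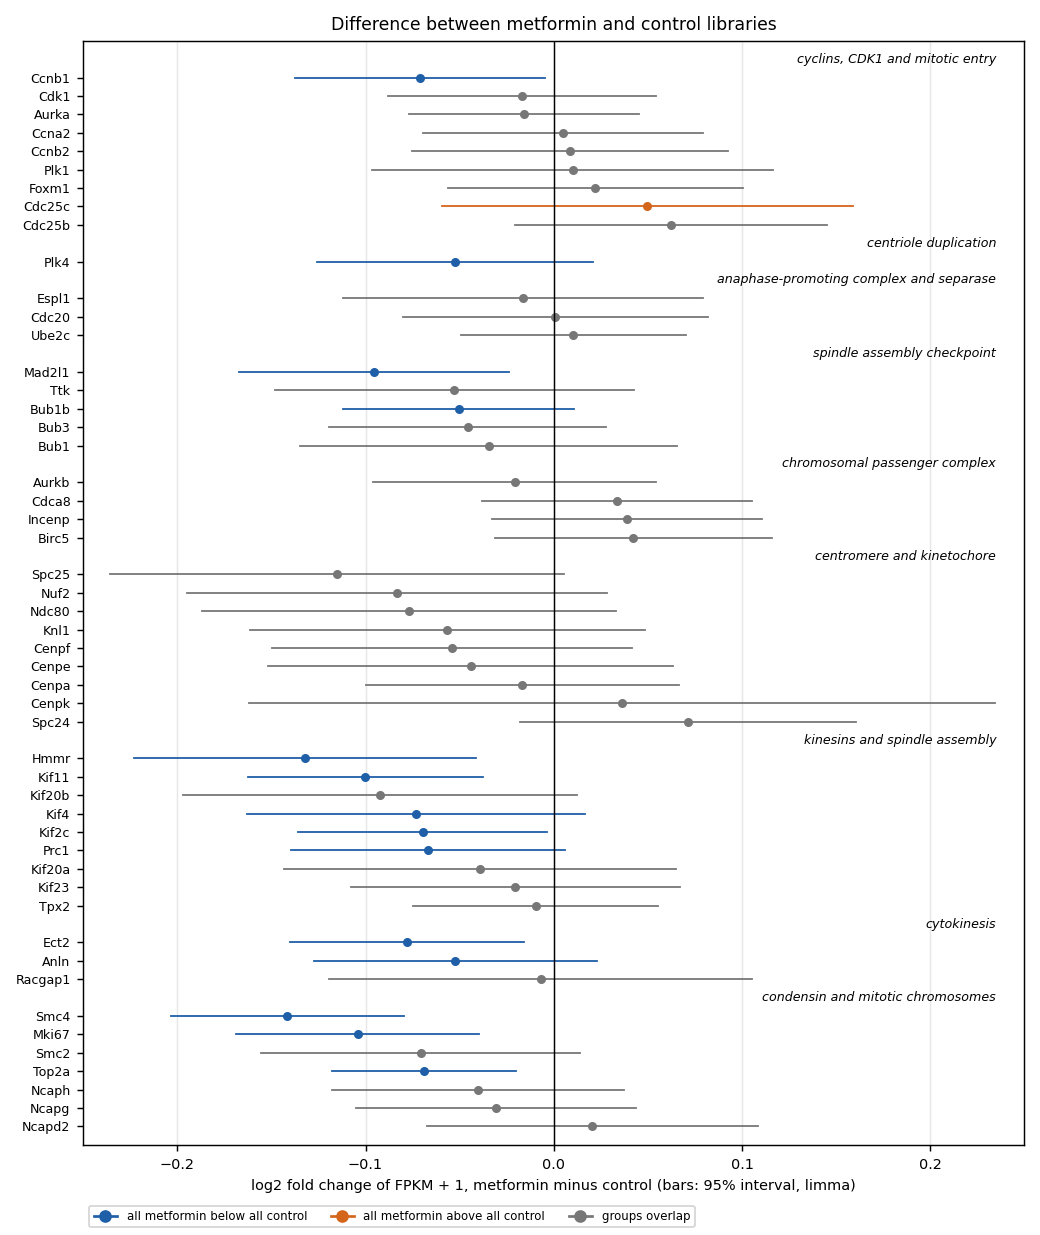
Log2 fold change of FPKM + 1 (metformin minus control) of each of the 50 genes with its 95% interval from limma, grouped by role; colour marks genes whose 3 metformin values were all below (14 genes) or all above (1 gene, Cdc25c) the control values. No interval extends beyond ±0.25, and all points of the kinesin and checkpoint groups lie below 0.

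The same values are given here library by library, as a description and not as further support. Together the 50 genes took 0.535%, 0.537% and 0.537% of the summed FPKM in the control libraries and 0.522%, 0.523% and 0.524% in the metformin libraries, so that the groups did not overlap. Their summed level averaged 1709 FPKM in control and 1672 FPKM in metformin libraries. The largest contributions to this difference of -36.9 FPKM came from abundant genes, Smc4 (-5.52 FPKM), Top2a (-4.63), Mki67 (-4.45) and Ccnb1 (-3.11), while Birc5 (1.33 FPKM) and Incenp (1.30) had the largest positive ones. The median deviation of the members from their own mean over the 6 libraries was 0.0108, 0.0205 and 0.0132 on the log2 scale in control and -0.0197, -0.0237 and -0.0169 in metformin libraries. Of the 50 members, 35 had their highest value in a control library and 38 their lowest in a metformin library. The matching shares of all tested genes were not counted, so these counts describe the members only. Metformin replicate 1 held the lowest value of 16 members and metformin replicates 2 and 3 of 12 and 10.

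A property of the transcripts moved with this difference. Members had a median transcript GC content of 46.9%, against 50.2% over the 9302 tested genes with a known GC content, and 36 of the 50 members lay below that median. Across all tested genes, readings of GC-poor transcripts were lower and those of GC-rich transcripts higher in the metformin libraries. When genes were divided into 10 bins by GC content, the lowest bin (18.1% to 42.0%) had a median log2 fold change of -0.05 and 24.1% of its genes had all metformin values below control. The highest bin (58.1% to 72.8%) had a median of 0.05 and 1.83%, and contained 0 members, whereas the lowest contained 10. The median deviation of the lowest bin was 0.025, 0.029 and 0.025 in the control and -0.018, -0.027 and -0.025 in the metformin libraries. The 36 members below the median GC content had a median log2 fold change of -0.05, with 31 of them negative and 12 of the 14 genes with all metformin values below control. The 14 members above it had a median of 0.01, with 5 negative and 2 of those 14 genes. Of all tested genes below the median GC content, 14.1% had all metformin values below control, with a median log2 fold change of -0.02. Above it these values were 2.71% and 0.03. Over the 50 members the log2 fold change followed GC content with Spearman's rho of 0.63 (Pearson's r 0.59), and over all 9302 genes with rho of 0.42 (r 0.37). These are descriptions across genes, which share their libraries and are not independent replicates.

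After each library was corrected for GC content, the count of members with an unadjusted p under 0.05 was 4 (8%), all lower (Smc4, Mki67, Kif2c and Hmmr), where 3.74% of tested genes were lower, and 0 were higher, where 4.02% of tested genes were. All metformin values lay below control in 8 members (16%), where 7.07% of tested genes did so. They lay above control in 1 (2%), where 6.75% of tested genes did so. The 8 included Aurka, whose groups had overlapped before correction. Groups of Ccnb1, Plk4, Mad2l1, Prc1, Hmmr, Anln and Ect2 were apart before it and overlapped after it. The median log2 fold change of the members was then -0.02. The members called after adjustment remained at 0, where 0.0323% of tested genes were called, and 38 members (76%) had a negative value, where 49.5% of tested genes did. This correction was chosen after the data had been seen.

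**Figure D4:**
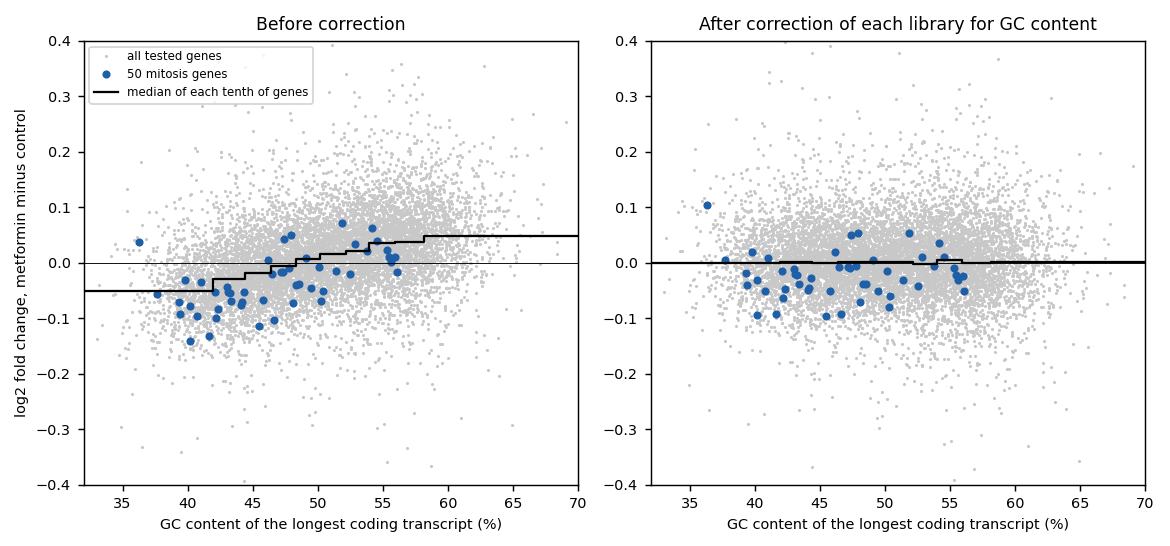
Log2 fold change (metformin minus control) against GC content in percent of the longest coding transcript, for 9302 tested genes (small grey points) and the 50 mitosis genes (large points), before and after correction of each library for GC content; the line is the median of each of 10 bins of genes, and genes beyond the vertical axis are not drawn. Before correction the bin medians run from -0.05 to 0.05 and the mitosis genes lie mostly on the GC-poor side, and after it the bin medians lie near 0.

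The genes of chromosome structure included the members with the smallest unadjusted p, Smc4 and Mki67, neither of which passed the adjusted test. Of the 7 genes, 6 had negative values and the median log2 fold change was -0.07 (-0.04 after GC correction). Smc4, the ATPase core subunit that both condensin complexes share, read 57.6, 58.7 and 58.1 FPKM in the control and 54.2, 51.8 and 51.8 FPKM in the metformin libraries. All metformin values lay below all control values, and the mean was 58.1 ± 0.540 (SD, n = 3) in control and 52.6 ± 1.40 with metformin. Its log2 fold change was -0.14 (SE 0.03, 95% interval -0.20 to -0.08) with a limma adjusted p of 0.284, and after GC correction it was -0.09 and the groups still did not overlap. Smc4 (chr3:69004738-69034623, plus strand) has a transcript GC content of 40.2%, which puts it in the GC-poorest bin.

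Its partner Smc2 read 18.8, 19.7 and 20.4 FPKM in control and 18.8, 18.4 and 18.7 FPKM with metformin, a log2 fold change of -0.07 with groups that overlapped (limma adjusted p = 0.526), and -0.02 after GC correction. The ratio of Smc4 to Smc2, which form a heterodimer, was 2.96 ± 0.111 in control and 2.82 ± 0.0591 with metformin (n = 3 each). The groups overlapped (exact permutation p = 0.2, where 0.1 is the smallest possible), and the ratio was chosen after its values were seen. The 3 subunits particular to condensin I showed no shared direction. Ncapd2 read 22.7 to 24.8 FPKM with metformin against 23.5 to 23.7 FPKM in control (log2 fold change 0.02), Ncapg 18.7 to 19.7 against 19.2 to 19.8 FPKM (-0.03) and Ncaph 23.6 to 25.3 against 24.9 to 25.5 FPKM (-0.04). The signs of Ncapd2 and Ncapg turned under GC correction, to -0.0055 and 0.0187. Per length, Smc4 mRNA stood above the mRNAs of the other condensin subunits in all 6 libraries.

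Mki67, whose product Ki-67 coats mitotic chromosomes and is the usual marker of cycling cells, read 63.9, 62.3 and 62.8 FPKM in control and 60.3, 57.1 and 58.2 FPKM with metformin. The highest metformin value was below the lowest control value. The log2 fold change was -0.10 (SE 0.03) with a limma adjusted p of 0.346, and -0.09 after GC correction, again without overlap. Top2a, the topoisomerase that untangles sister chromatids, read 97.8, 99.6 and 96.5 FPKM in control and 93.0, 93.3 and 93.7 FPKM with metformin. The groups were apart, and the metformin libraries agreed to within an SD of 0.355 FPKM. Its log2 fold change was -0.07 (SE 0.02, limma adjusted p = 0.363), and -0.04 after GC correction.

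The kinesins and spindle assembly factors were the largest of the role groups in which every value was negative. All 9 genes read lower on average with metformin, with a median log2 fold change of -0.07 (-0.05 after GC correction). In 5 of them all metformin values lay below control, where 8.1% of all tested genes did so. After GC correction this held for 3 of the 9, where 7.07% of tested genes did so. Hmmr, a spindle assembly factor at spindle poles, read 26.1, 25.2 and 25.8 FPKM in control and 23.0, 22.5 and 24.7 FPKM with metformin. Metformin replicate 3 lay nearest to control, yet below it. The log2 fold change of Hmmr was -0.13 (SE 0.04, 95% interval -0.22 to -0.04; limma adjusted p = 0.350), and after GC correction it was -0.09 and the groups overlapped. Hmmr (chr11:40701395-40733422, minus strand) has a transcript GC content of 41.6%, like Smc4 in the lowest bin.

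Kif11, the kinesin-5 that pushes spindle poles apart, read 28.4, 29.2 and 28.9 FPKM in control and 26.8, 27.3 and 26.5 FPKM with metformin. The gap between the groups was wider than the range within either one, and the log2 fold change was -0.10 (SE 0.03, limma adjusted p = 0.346), or -0.06 after GC correction. Kif2c, the microtubule-depolymerising kinesin that corrects wrong attachments, read 21.1, 20.5 and 20.6 FPKM in control and 19.4, 19.8 and 19.8 FPKM with metformin. Its log2 fold change was -0.07 (SE 0.03, limma adjusted p = 0.445), and -0.08 after GC correction, so that this gene, with a GC content of 50.3%, moved little under the correction. Kif4, a chromokinesin, read 12.2 to 12.6 FPKM in control and 11.2 to 12.2 FPKM with metformin without overlap, and so did Prc1, which bundles midzone microtubules, at 22.1 to 22.5 FPKM against 20.8 to 22.0 FPKM. The groups of Kif4 were 0.04 FPKM apart and those of Prc1 0.13 FPKM, less than the spread within the metformin libraries.

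In the other members of that group the libraries overlapped. Tpx2, the activator of Aurora A and the most abundant of the group, averaged 86.4 ± 0.776 FPKM in control and 85.8 ± 2.76 FPKM with metformin (n = 3 each; log2 fold change -0.01). Kif20a and Kif23, the midzone kinesins, had log2 fold changes of -0.04 and -0.02, and Kif20b, which acts in cytokinesis, had -0.09 (limma adjusted p = 0.504), with metformin values of 23.9, 22.2 and 21.5 FPKM against 24.8, 23.5 and 23.9 FPKM in control.

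**Figure D5:**
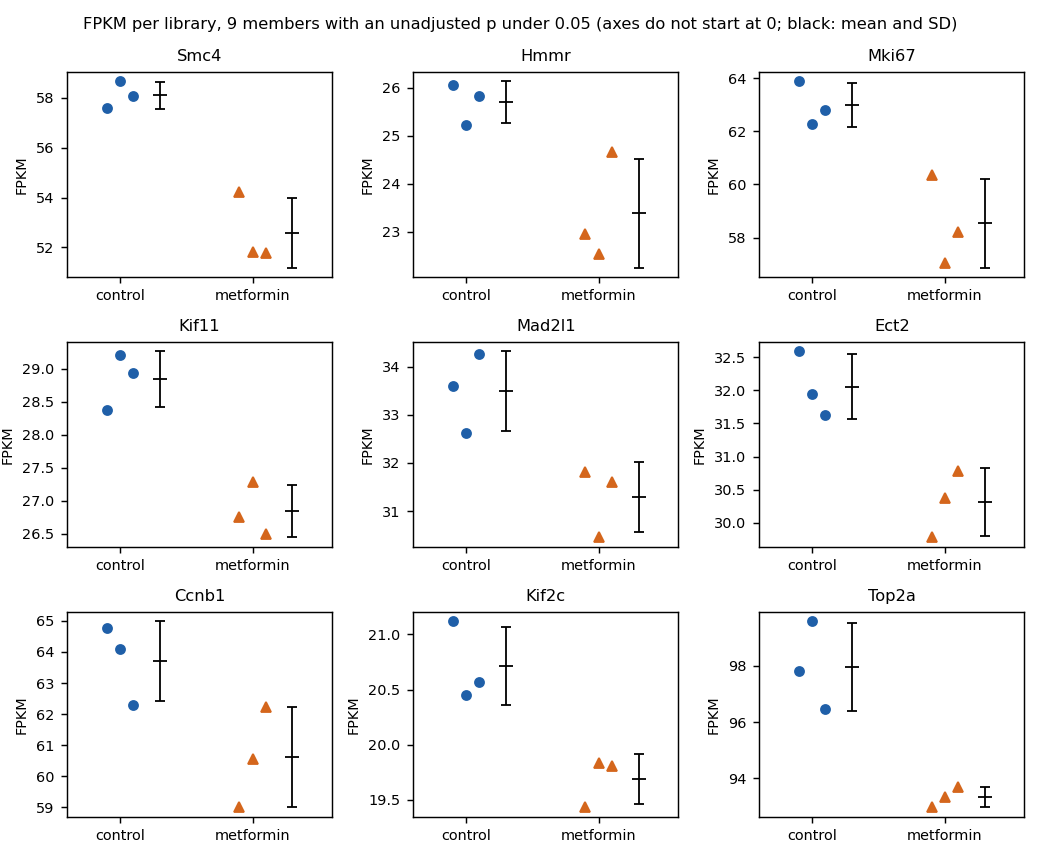
FPKM in each library for the 9 mitosis genes with an unadjusted limma p under 0.05; circles are control and triangles metformin libraries, and black marks give the mean and SD (n = 3). In all 9 panels the metformin values lie below the control values, by a small part of the level, on axes that do not start at 0.

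The spindle assembly checkpoint genes also all read lower on average, by a median log2 fold change of -0.05 (-0.05 after GC correction) over 5 genes. Mad2l1, which encodes the checkpoint protein that binds and holds Cdc20, read 33.6, 32.6 and 34.3 FPKM in control and 31.8, 30.5 and 31.6 FPKM with metformin. The groups did not overlap, the log2 fold change was -0.10 (SE 0.03, 95% interval -0.17 to -0.02; limma adjusted p = 0.376), and after GC correction it was -0.05. Bub1b, encoding BubR1 of the mitotic checkpoint complex and the most abundant of the group, averaged 39.3 ± 0.700 FPKM in control and 37.9 ± 0.618 FPKM with metformin. Its values did not overlap before or after GC correction (log2 fold changes -0.05 and -0.06). Bub3, the partner of Bub1 and BubR1, had a log2 fold change of -0.05, the kinase gene Ttk (Mps1) one of -0.05 and Bub1 one of -0.03, all with overlapping libraries. For Bub1 the sign turned under GC correction, to 0.0081.

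Of the cytokinesis genes, Ect2, the exchange factor that activates RhoA at the division plane, read 32.6, 31.9 and 31.6 FPKM in control and 29.8, 30.4 and 30.8 FPKM with metformin. All metformin values were below control, with a log2 fold change of -0.08 (SE 0.03, limma adjusted p = 0.390) that was -0.03 after GC correction at a GC content of 40.2%. Anln, the scaffold anillin of the contractile ring, read 10.3 to 10.7 FPKM in control and 10.1 to 10.2 FPKM with metformin, again without overlap (log2 fold change -0.05). Racgap1, the partner of Kif23 in centralspindlin, overlapped fully and differed by -0.01, with metformin replicate 1 at 18.6 FPKM and the other 2 metformin libraries at 21.0 and 20.8 FPKM. Without metformin replicate 1 its log2 fold change was 0.05.

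Among the genes of mitotic entry, 6 of 9 had small positive values, with a median log2 fold change of 0.0085. After GC correction the median was -0.0086 and 5 of the 9 were negative, with Plk1 at -0.02 and Foxm1 at -0.0095. Ccnb2 was the most abundant, at 86.2, 93.6 and 87.4 FPKM in control and 87.5, 91.7 and 89.5 FPKM with metformin. Ccna2 averaged 71.3 ± 2.74 and 71.5 ± 1.11 FPKM, and Cdk1 differed by -0.02 on the log2 scale. The exception was Ccnb1, the cyclin B1 subunit of the main mitotic kinase, which read 64.8, 64.1 and 62.3 FPKM in control and 59.0, 60.6 and 62.2 FPKM with metformin. Its groups were apart by only 0.05 FPKM, with a log2 fold change of -0.07 (SE 0.03, limma adjusted p = 0.439) that was -0.05 after GC correction.

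Of the B-type cyclins, Ccnb1 thus stood at -0.07 and Ccnb2 at 0.0085, and the difference between them was not tested. The phosphatases that activate Cdk1 had the highest values of the group. Cdc25b read 20.9, 20.0 and 21.3 FPKM in control and 22.3, 21.2 and 21.6 FPKM with metformin, with overlapping groups and a log2 fold change of 0.06 (95% interval -0.02 to 0.15). Cdc25c lay at 5.66, 5.55 and 5.67 FPKM in control and 6.21, 5.69 and 5.69 FPKM with metformin, so that its lack of overlap rested on 0.02 FPKM. Plk1, Aurka and Foxm1, the Polo-like kinase, Aurora A and the transcription factor of G2 genes, differed by 0.01, -0.02 and 0.02 on the log2 scale with overlapping groups. Plk4, the kinase of centriole duplication, read 14.4 to 14.9 FPKM in control and 13.9 to 14.3 FPKM with metformin without overlap (log2 fold change -0.05, and -0.02 after GC correction).

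The 3 genes of mitotic exit lay near 0, with a median log2 fold change of 0.0009 (-0.03 after GC correction). Cdc20 read 129, 132 and 139 FPKM in control and 136, 129 and 135 FPKM with metformin, a log2 fold change of 0.0009 whose 95% interval ran from -0.08 to 0.08. Its sign depended on the scaling and was negative after rescaling each library to the same sum (-0.0037), after quantile normalization (-0.0136) and after centring (-0.0027). Ube2c, the ubiquitin-conjugating enzyme of the anaphase-promoting complex, and Espl1, the separase gene, differed by 0.01 and -0.02, with overlapping libraries.

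The chromosomal passenger complex had the highest median log2 fold change of the role groups, 0.04 (0.01 after GC correction), with 3 of 4 genes positive and none past the test. Birc5 (survivin) averaged 43.4 ± 0.600 FPKM in control and 44.8 ± 1.60 FPKM with metformin, a log2 fold change of 0.04 with a 95% interval of -0.03 to 0.12. Incenp, the scaffold, read 46.7, 45.0 and 47.0 FPKM in control and 49.1, 46.5 and 47.1 FPKM with metformin (0.04), and Cdca8 (borealin) averaged 28.1 ± 0.901 and 28.8 ± 0.223 FPKM (0.03). The kinase Aurkb averaged 53.4 ± 0.954 and 52.6 ± 1.93 FPKM (-0.02). Per length, the 4 mRNAs kept the order Aurkb, Incenp, Birc5, Cdca8 in the means of both groups. The metformin values of Incenp and Birc5, which neighbour each other in it, overlapped.

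Centromere and kinetochore genes read lower on average in 7 of 9 cases, with a median log2 fold change of -0.05 (-0.01 after GC correction) and overlapping libraries in all 9. The NDC80 complex, which grips the microtubule end, was uneven. Spc25 read 13.6, 14.3 and 12.9 FPKM in control and 13.3, 12.1 and 12.0 FPKM with metformin, the lowest log2 fold change of the group at -0.12 (95% interval -0.24 to 0.01; limma adjusted p = 0.474). Spc24, with which it forms a dimer, read 14.3, 14.7 and 15.5 FPKM in control and 15.5, 16.0 and 15.4 FPKM with metformin, the highest log2 fold change of all 50 members at 0.07 (95% interval -0.02 to 0.16). The ratio of Spc25 to Spc24 was 0.920 ± 0.0746 in control and 0.800 ± 0.0507 with metformin (n = 3 each; exact permutation p = 0.2), again a ratio chosen after its values were seen.

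Nuf2 and Ndc80, the microtubule-binding dimer of the same complex, averaged 14.1 ± 0.572 and 8.40 ± 0.284 FPKM in control and 13.3 ± 0.709 and 7.91 ± 0.392 FPKM with metformin, with log2 fold changes of -0.08 for each. Cenpa, the centromeric histone H3 variant and the most abundant gene of the group, read 38.3, 40.6 and 39.4 FPKM in control and 40.5, 37.7 and 38.7 FPKM with metformin (-0.02). The kinesin Cenpe, the large kinetochore protein Cenpf and the scaffold Knl1 differed by -0.04, -0.05 and -0.06. Cenpk read 2.82, 2.98 and 3.64 FPKM in control and 3.15, 3.12 and 3.45 FPKM with metformin, and with a 95% interval of -0.16 to 0.23 it was the least certain member. Cenpk also overlaps Ppwd1 on the opposite strand, which was more abundant (4.64 FPKM), and whether the counting used strand is not stated. A gene averaging at least 1 FPKM overlaps 10 other members too, on the opposite strand in 9 of them. Among these are Cdc20 (Elovl1, 58.3 FPKM), Kif4 (Pdzd11, 14.3 FPKM) and Ccna2 (Exosc9, 9.51 FPKM). The shared stretch was only chr4:118432901-118432953 in Cdc20 and chr13:104228611-104228843 in Cenpk, but the whole of Prc1 (Rccd1, 2.31 FPKM). Its part in the readings was not tested.

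Related gene lists were read from the same fit, and none of their genes passed the adjusted test. Of 90 other mitosis genes, 89 were tested, and 54 had negative and 35 positive values with a median log2 fold change of -0.01. At an unadjusted p under 0.05 after GC correction, 6 of them were lower and 3 higher, where 3.74% and 4.02% of tested genes were. Before correction 10 were lower and 3 higher at that threshold, where 4.81% and 6.03% of all tested genes were. The lower ones included the centromere protein genes Cenpc1 and Cenpi (-0.15 each), the spindle pole gene Aspm (-0.14), the kinase gene Mastl (-0.13), the condensin II gene Ncapd3 (-0.12) and the augmin genes Haus2 (-0.11) and Haus6 (-0.10), beside Depdc1a (-0.17) and Shcbp1 (-0.15). The higher ones were Mad1l1 (0.14), the Mad2 anchor, Sgo1 (0.11), the shugoshin that shields cohesin, and Cdca5 (0.10), sororin. Mad1l1 averaged 16.1 FPKM in control and 17.9 FPKM with metformin, and its difference from its partner Mad2l1 was not tested. After GC correction the list's median was 0.0044, with 41 negative values.

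The 11 genes of cohesin and its loaders and releasers all read lower on average, and their median on the log2 scale was -0.05. In 5 of them all metformin values lay below control, where 8.1% of all tested genes did so, and 1, Pds5a (-0.08), had an unadjusted p under 0.05. Of all tested genes, 4.81% were lower at that p. After GC correction 1 cohesin gene had all metformin values below control, where 7.07% of tested genes did. Lower at that p were then 0, where 3.74% of tested genes were. The 11 genes had a median transcript GC content of 42.3%, and their corrected median was -0.0078 with 7 negative values. Among 24 regulators of G2 and M transcription, 11 were negative and 13 positive with a median of 0.01. At an unadjusted p under 0.05, Lin54 (-0.17), the MuvB subunit that binds the CHR, and E2f6 (-0.16) were lower and E2f2 (0.13) higher. Over all tested genes, 4.81% were lower and 6.03% higher at that threshold. After GC correction 3 regulators were lower and 0 higher, where 3.74% and 4.02% of tested genes were. Of 42 DNA replication genes, 24 were negative and 18 positive with a median of -0.01, and 7 were lower and 4 higher at that threshold, among them Rfc4 (-0.14) and Gins2 (0.18), where 4.81% and 6.03% of all tested genes were. After GC correction 2 were lower and 1 higher, where 3.74% and 4.02% of tested genes were. The most abundant genes of the mitosis, regulator, replication and cohesin lists, Cks1b, Tfdp1, Mcm3 and Rad21, differed by 0.04, -0.01, -0.02 and -0.01.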

How the data were processed

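RNA-seq of 3 control and 3 metformin libraries was analysed, grouped by the sample labels. The authors deposited FPKM, already normalized for transcript length and depth. The submitters' processing notes name HISAT2, DESeq2 and mm9 without their roles, whereas the gene positions in the table are those of GRCm38. The labels name a stranded kit and the methods another kit, and the counter is not given in the sources used here. Symbols were found for 32589 of 55401 Ensembl genes.

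FPKM gives no counts, so no count test was run. Values were tested as log2(FPKM + 1), a scale that understates changes of low genes, for genes averaging 1 FPKM or more, with limma 3.58.1 (lmFit, eBayes with a trend, R 4.3.3), two-sided, without a replicate block, at a threshold of 0.05. Depth was estimated from the value steps of single-exon genes shorter than 400 bp, of which 348 to 387 values per library were used and 100% lay within 0.1 of a whole fragment. Intervals are at 95%. GC content and length are those of the longest GENCODE M1 protein-coding transcript, known for 87.3% of tested genes and all 50 members, and each library was corrected by loess. Python 3.11.15 and matplotlib 3.10.9 were used. The fit was tested on simulated data.

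The members and lists were chosen with earlier results of these data known. Named by rule were, in each role, the most abundant member and those with the highest and lowest log2 fold change, members with an unadjusted p under 0.05, and subunits of the condensin I, NDC80 and chromosomal passenger complexes. From other lists, genes with an unadjusted p under 0.05 or the highest level could be named. The remaining members are given to account for all 50. The alternatives changed the pseudocount (to 0.1), the filter (none, or an average of 10 FPKM), the scaling (3 ways), the spread (2 ways) and the block, or left out each library in turn. Corrections for GC content and length were added after seeing the data.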

Additional observations from a re-analysis of the deposited data

How the results depend on the processing

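No member was called under any of 20 alternatives, and the lowest adjusted p of a member (limma) ranged from 0.127 to 0.541 over them. Genes called numbered 3 in the main fit and 2 to 4 under most alternatives. They numbered 7 without a filter, 12 among genes with a known GC content and 6 with length correction. The 9 members lower at an unadjusted p numbered 4 with GC correction, 5 with GC and length correction and 3 with the replicate block and GC correction together. Members with all metformin values lower numbered 14 in the main fit and 8, not all of them among the 14, under each of these 3. They numbered 15 to 23 when a library was left out (23 without metformin replicate 1), where groups of 2 overlap less easily. The matching shares of all tested genes are given here only for the main fit and for GC correction. Counts under the other alternatives therefore describe the members only. The 1 member with all values higher, Cdc25c, averaged 5.745 FPKM and was removed by the filter at 10 FPKM, so the count of 0 there was fixed by that filter. Members with all values higher also numbered 0 under TPM and with length or GC and length correction, and 1 to 4 when a library was left out. The members higher at an unadjusted p numbered 0 to 1 (1 without control replicate 3). The median member log2 fold change, -0.0397, was -0.0451 under TPM, -0.0235 with GC correction, with or without the block, -0.0248 with GC and length correction and -0.0433 to -0.0352 when a library was left out. Of 32 members named by rule, 21 kept their sign. With GC correction, with or without the block, Bub1 was 0.0081, Ncapg 0.0187, Ncapd2 -0.0055, Cdc20 -0.0319 and Ube2c -0.0221, and with GC and length correction 0.0059, 0.0172, -0.0046, -0.0343 and -0.0248. With length correction Ccnb2 was -0.0063, Cdc20 -0.0132 and Ube2c -0.0017. Cdc20 was -0.0037 under TPM, -0.0136 under quantile normalization and -0.0027 under centring. With a library left out, values spanned 0 for Aurkb (-0.0464 to 0.0055), Ccnb2 (-0.0146 to 0.0444), Cdc20 (-0.0236 to 0.0306), Cenpa (-0.0445 to 0.0070), Espl1 (-0.0421 to 0.0194), Ncapd2 (-0.0031 to 0.0582), Racgap1 (-0.0378 to 0.0470), Tpx2 (-0.0243 to 0.0171) and Ube2c (-0.0068 to 0.0241). The cause of these changes was not tested. Whether the replicate numbers pair the samples could not be settled, since weak correlations do not show how libraries were prepared. Deviations from the group means correlated at -0.0317, 0.0181 and 0.0479 between same-numbered libraries, and at -0.0504 to 0.0300 between the others. With the replicate block 2 genes and 0 members were called and 7 members were lower at an unadjusted p. Depth limits the low members most, with Cenpk near 57.7 fragments per library.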
